A study of Rattus norvegicus with 10 samples.

Results

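The homeostatic microglia genes are 10 transcripts that mark microglia, the resident macrophages of the brain, in their surveying state: P2ry12, P2ry13, Gpr34, Cx3cr1, Csf1r, Itgam, Tmem119, Olfml3, Aif1 and Sall1. They were chosen by name, each matched 1 row of the table, and they make up 10 of its 32623 genes. RNA sequencing had been done on the supraoptic nucleus, a hypothalamic cell group that holds the neurons releasing vasopressin and oxytocin, in male Sprague Dawley rats. In each rat 1 supraoptic nucleus had received an adeno-associated virus whose short hairpin RNA targets Opn3, a light-sensitive opsin, while the nucleus of the other side had received a hairpin that targets no gene, and 5 shOpn3 and 5 shControl samples were compared. All samples had thus been injected with a virus, and the samples were 1 mm punches of 100 µm sections taken 2 weeks afterwards. The labels name no promoter or cell type for the hairpins, and no ages.

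Microglia depend on colony stimulating factor signals through Csf1r for their survival and on transforming growth factor beta and the transcription factor Sall1 for their identity. At rest their branches carry receptors for nucleotides and for the neuronal chemokine fractalkine, which let them sense damage and neuronal state. In injury and inflammation they commonly lose several of these transcripts while markers of phagocytosis and of an activated state rise, and the number of microglia can grow by division. Aif1, Itgam, Csf1r and Cx3cr1 are also carried by blood monocytes or other macrophages. Among macrophages of the brain, P2ry12, Tmem119, Sall1 and Olfml3 are more restricted to microglia.

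Of the 10 members, 7 were higher in shOpn3 at an adjusted p under 0.05 (limma, adjusted over all 15597 genes tested), 0 were called lower, and the remaining 3 had differences above 0 that were not called. Over all genes tested, 10.4% were called higher and 8.48% lower. In none of 26 alternative fits, edgeR and DESeq2 among them, did a member have a difference below 0. The members' median log2 fold change was 0.91, against -0.02 for all genes. Values are normalized counts, which are reads divided by a size factor per sample, and all 10 members passed the filter of a mean of at least 10. In whole tissue, more cells of a type and more RNA per cell cannot be told apart.

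Opn3 had 704 ± 277 normalized counts in the controls and 188 ± 59.7 after knock-down (SD over 5 samples each), with shControl replicate 5 inside the range of shOpn3. Libraries held 33158341 to 39958578 reads counted in genes. Avp and Oxt, the transcripts that define the tissue, were present in every sample and fell (log2 fold changes -2.35 and -2.21, with standard errors of 0.426 and 0.328; adjusted p = 0.00269 and 0.000915, limma). The labels name no batches.

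**Figure D1:**
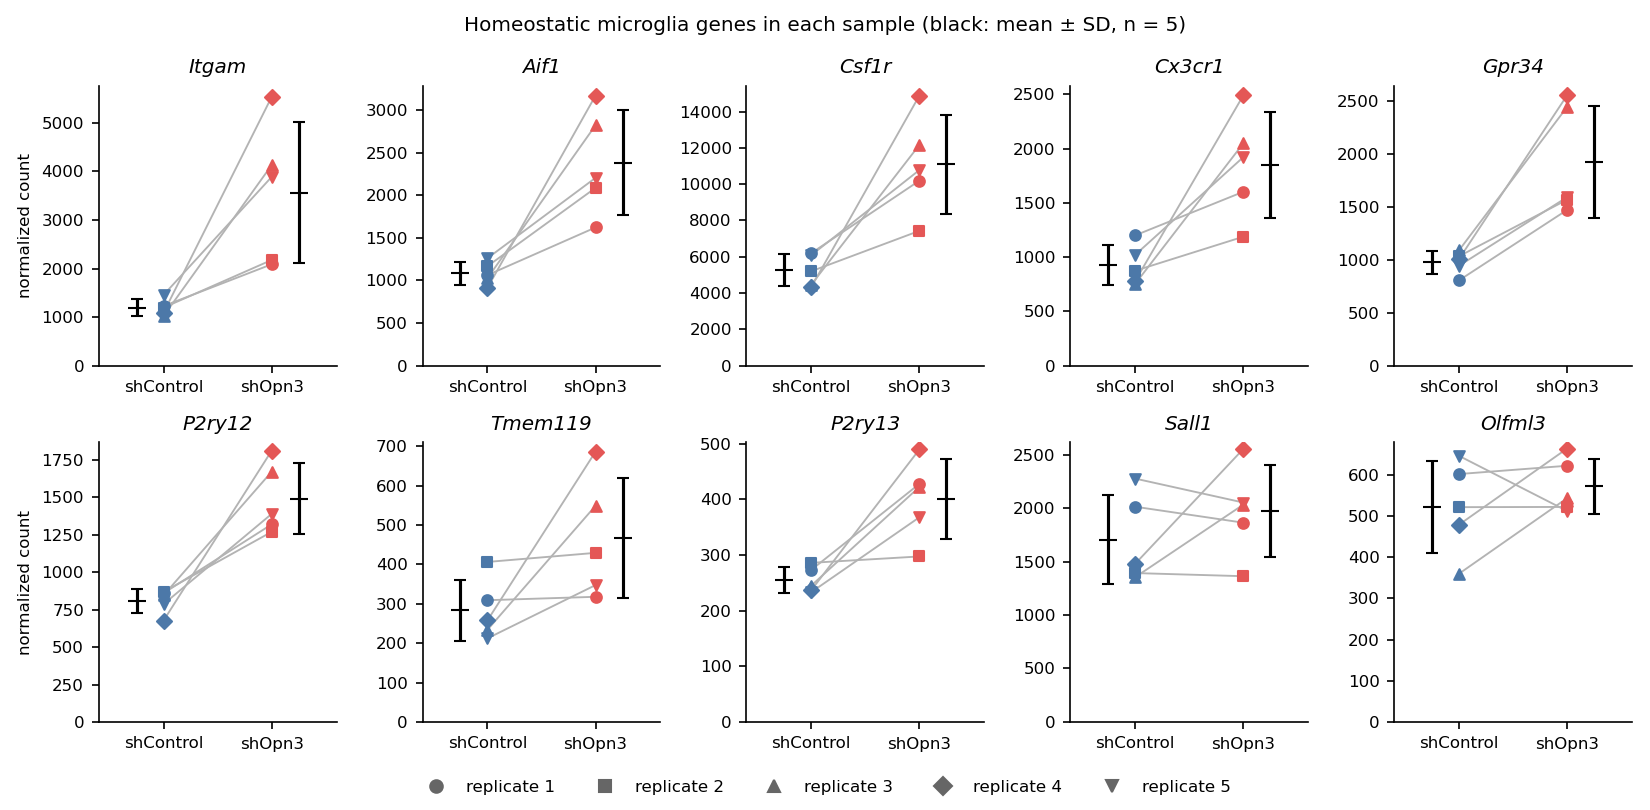
Normalized counts (y axis, from 0) of the 10 members in 5 shControl and 5 shOpn3 samples; grey lines join samples with the same replicate number and black bars give mean ± SD. Groups do not overlap for Itgam, Aif1, Csf1r, Gpr34, P2ry12 and P2ry13, whereas Sall1 and Olfml3 cover similar ranges.

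The purinergic receptors came first. P2ry12 (ENSRNOG00000013902) encodes the receptor through which microglial branches sense adenosine diphosphate and move towards a lesion. It had 860, 869, 846, 677 and 787 normalized counts in shControl replicates 1 to 5 and 1320.1, 1270.2, 1672, 1812 and 1390.0 in shOpn3 replicates 1 to 5. Every shOpn3 sample lay above every shControl sample, with replicates 3 and 4 the highest. Means were 808 ± 79.9 and 1493 ± 237 (SD over 5 samples each), and P2ry12 rose by 0.88 in log2 units (standard error 0.114; adjusted p = 0.000483, limma). P2ry13 (ENSRNOG00000029756), a related receptor for the same nucleotide, had 273, 286, 245, 237 and 233 normalized counts in the shControl samples and 428, 297, 422, 490 and 368 in the shOpn3 samples. The groups did not overlap, although shOpn3 replicate 2 lay only just above the highest control, the shControl sample of the same number. P2ry13 rose by 0.64 (standard error 0.134; adjusted p = 0.00614, limma), from 255 ± 23.4 to 401 ± 72.3 (SD over 5 samples each).

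In the RefSeq annotation of assembly GRCr8, P2ry12 and P2ry13 both lie within the span of Med12l. It had 2685 ± 430 normalized counts in the controls and 2212 ± 422 after knock-down (SD over 5 samples each; a difference of -0.28 ± 0.141 standard error in log2, adjusted p = 0.190 in limma), a difference below 0 while both receptors inside it rose. P2ry14, another purinergic receptor gene of this family, rose by 0.72 (standard error 0.190; adjusted p = 0.0201, limma), a call lost in 4 alternative fits, for example without shOpn3 replicate 3 (0.0527). Med12l was called lower by limma-voom with quality weights (-0.39; adjusted p = 0.0138). Whether reads were counted by strand was not given in the sources used here, so values of overlapping genes are uncertain.

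Gpr34 (ENSRNOG00000039759) encodes a receptor for lysophosphatidylserine, a lipid released from damaged membranes. It had 804, 1032, 1088, 1006 and 942 normalized counts in the shControl samples and 1469, 1565, 2440.0, 2550.1 and 1589 in the shOpn3 samples. The groups did not overlap, and shOpn3 replicates 3 and 4 stood apart from the other 3. The rise was 0.95 in log2 units (standard error 0.162; adjusted p = 0.00195, limma), from 974 ± 109 to 1923 ± 526 (SD over 5 samples each). Gpr34 lies within the span of Cask, which had 1922 ± 390 and 2136 ± 243 normalized counts (SD over 5 samples each; limma adjusted p = 0.429).

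Cx3cr1 (ENSRNOG00000018509) is the receptor for fractalkine, which neurons carry on their surface. It had 1199.9, 874, 753, 779 and 1020.2 normalized counts in the shControl samples and 1601, 1187, 2047, 2488 and 1920.1 in the shOpn3 samples. The groups overlapped by a single sample, because shOpn3 replicate 2 lay just below shControl replicate 1. Cx3cr1 rose by 0.98 (standard error 0.187; adjusted p = 0.00361, limma), from 925 ± 186 to 1849 ± 488 (SD over 5 samples each), and its exact two-sided permutation p was 0.0159. That permutation ignores the replicate numbers. Flipping the signs of the same-numbered differences gave an exact p of 0.0625, the smallest possible with 5 pairs.

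Csf1r (ENSRNOG00000018414) is the receptor tyrosine kinase on whose signals microglia depend. It had 6200.3, 5202, 4467, 4329 and 6089 normalized counts in the shControl samples and 10195, 7430.2, 12165, 14884 and 10781 in the shOpn3 samples. The groups did not overlap, and replicate 2 was the lowest shOpn3 sample. Csf1r rose by 1.06 (standard error 0.168; adjusted p = 0.00128, limma), from 5257 ± 876 to 11091 ± 2731 (SD over 5 samples each).

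Itgam (ENSRNOG00000019728) encodes CD11b, the alpha chain of the complement receptor integrin of microglia, monocytes and neutrophils. It had 1227, 1195, 1022, 1089.8 and 1456 normalized counts in the shControl samples and 2088, 2176, 4129.6, 5534 and 3887 in the shOpn3 samples. The shOpn3 samples formed a lower pair, replicates 1 and 2, and a higher set of 3, all above the controls. At 1.48 in log2 units (standard error 0.240; adjusted p = 0.00141, limma) its rise had the highest estimate of the 10, from 1198 ± 166 to 3563 ± 1450 (SD over 5 samples each).

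Aif1 (ENSRNOG00000000853) encodes Iba1, a calcium-binding protein that bundles actin and is the usual stain for microglia and macrophages. It had 1062, 1166, 1026, 912 and 1259.6 normalized counts in the shControl samples and 1621, 2086, 2820.4, 3168 and 2204 in the shOpn3 samples, again without overlap. It rose by 1.10 (standard error 0.162; adjusted p = 0.000862, limma), from 1085 ± 133 to 2379.9 ± 614 (SD over 5 samples each).

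Tmem119 (ENSRNOG00000000700), a membrane protein used to tell microglia from other macrophages, was the member nearest the threshold. It had 309, 406, 234, 257 and 212 normalized counts in the shControl samples and 318, 429, 549, 686 and 347 in the shOpn3 samples. Replicates 1 and 5 of shOpn3 lay below shControl replicate 2, so the groups overlapped, while each shOpn3 sample was above the control of its own number. The log2 fold change was 0.69 (SE 0.226, 95% confidence interval 0.20 to 1.19; limma adjusted p = 0.0511; exact two-sided permutation p = 0.0317). The exact sign-flip test over the 5 pairs gave p = 0.0625, its smallest possible value. Tmem119 was called higher once replicate number entered the model as a block (adjusted p = 0.0386, limma; 15.1% of all genes were called higher), by edgeR's quasi-likelihood test (0.0493; 10.4% of all genes) and in the authors' deposited table (0.0149; 11.4% of the genes with an adjusted p). Of 26 alternative fits 10 called Tmem119 and 16 did not, with adjusted p from 0.0149 to 0.214 and log2 fold changes from 0.46 to 0.86. DESeq2 is among these 10 and gave the same log2 fold change and adjusted p (0.72 and 0.0149) as the deposited table, so the 2 are not separate results. The authors' deposited table otherwise called the same 7 members, with log2 fold changes from 0.66 for P2ry13 to 1.57 for Itgam.

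Sall1 (ENSRNOG00000013907), the transcription factor that holds microglia in their resident identity, had 2012, 1392, 1353, 1478 and 2276 normalized counts in the shControl samples and 1863, 1363, 2032, 2552 and 2052 in the shOpn3 samples. The ranges of the groups overlapped almost wholly, and Sall1 was higher in 2 of 5 pairs. Its log2 fold change of 0.22 (SE 0.180, 95% confidence interval -0.17 to 0.61; limma adjusted p = 0.446) was not called, and it was called only by limma-voom with sample quality weights (0.41; adjusted p = 0.0271; 15.7% of all genes called higher) among the 26 alternative fits. Olfml3 (ENSRNOG00000019211), a secreted olfactomedin-like protein of microglia, had 602, 522, 360.2, 479 and 647 normalized counts in the shControl samples and 623, 523, 544, 665 and 513 in the shOpn3 samples. The lowest sample was shControl replicate 3, and the other samples lay between 479 and 665. Olfml3 had a log2 fold change of 0.16 (SE 0.15, 95% confidence interval -0.17 to 0.48; limma adjusted p = 0.516), with 4 of 5 pairs higher. A rise of the size seen for Csf1r or Itgam lies outside both intervals.

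Promoters are shown to let members that moved together be read beside one that did not. RefSeq windows of assembly GRCr8 were matched for 6 of the 10 members, and the 250 bases before the annotated start are printed for Itgam (chr1:192089342-192089591, plus strand), Gpr34 (chrX:11785837-11786086, minus strand), P2ry13 (chr2:145622785-145623034, minus strand) and Olfml3 (chr2:193935495-193935744, minus strand), 5′ to 3′ on the strand of the gene. Capitals mark GAGGAA, the core bound by PU.1, the factor that specifies macrophages and that is encoded by Spi1, on either strand.
Itgam: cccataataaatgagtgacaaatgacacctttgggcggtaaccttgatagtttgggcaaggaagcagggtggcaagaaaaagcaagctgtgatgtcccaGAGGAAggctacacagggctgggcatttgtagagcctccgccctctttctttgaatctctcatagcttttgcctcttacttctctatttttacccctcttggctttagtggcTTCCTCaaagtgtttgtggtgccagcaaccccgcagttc
Gpr34: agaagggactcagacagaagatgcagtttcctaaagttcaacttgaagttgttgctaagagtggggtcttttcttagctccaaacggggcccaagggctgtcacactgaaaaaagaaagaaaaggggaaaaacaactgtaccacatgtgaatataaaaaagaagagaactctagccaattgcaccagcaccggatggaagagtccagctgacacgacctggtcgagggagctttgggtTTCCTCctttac
P2ry13: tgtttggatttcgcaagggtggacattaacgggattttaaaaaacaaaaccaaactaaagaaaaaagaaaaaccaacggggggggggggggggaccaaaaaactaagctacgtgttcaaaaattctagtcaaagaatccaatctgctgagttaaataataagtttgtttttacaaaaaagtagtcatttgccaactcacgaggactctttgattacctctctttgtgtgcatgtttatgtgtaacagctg
Olfml3: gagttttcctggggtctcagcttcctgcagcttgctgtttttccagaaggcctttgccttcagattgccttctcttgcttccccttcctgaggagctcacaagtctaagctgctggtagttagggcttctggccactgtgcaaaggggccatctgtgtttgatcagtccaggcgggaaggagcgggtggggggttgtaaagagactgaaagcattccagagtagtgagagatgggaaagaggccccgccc

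The GAGGAA core was found in the windows of 3 of the 6 members, Itgam, Csf1r and Gpr34, and in 23.3% of all 33469 windows of this length. It begins 151 and 39 bases before the start of Itgam and 12 bases before that of Gpr34. The longer GAGGAAGT, which contains the core, was found in 0 of 6 members and 2.04% of all windows. A SMAD-type motif, CAGACA, was found in 2 of 6 (Csf1r and Gpr34) and 17.2%, and an interferon-type motif, GAAA repeated after any 2 bases, in 0 of 6 and 3.41%. All were searched on both strands, and a match or its absence describes only the letters of these windows.

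Same-numbered samples were then set against each other. Of the 10 members, 8 were higher in shOpn3 in 5 of 5 pairs, which held for 18.7% of all genes tested, and for 6 the groups did not overlap at all, with shOpn3 above (8.03% of all genes). The size of the difference depended on the pair. In all 10 members the largest ratios of shOpn3 to shControl were those of pairs 3 and 4. The members' median ratio was 1.53, 1.39, 2.30, 2.67 and 1.72 in pairs 1 to 5. Itgam was 5.08 times its control in pair 4 and 1.70 times in pair 1, and Tmem119 was 2.66 times its control in pair 4 but 1.03 and 1.06 times in pairs 1 and 2.

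**Figure D2:**
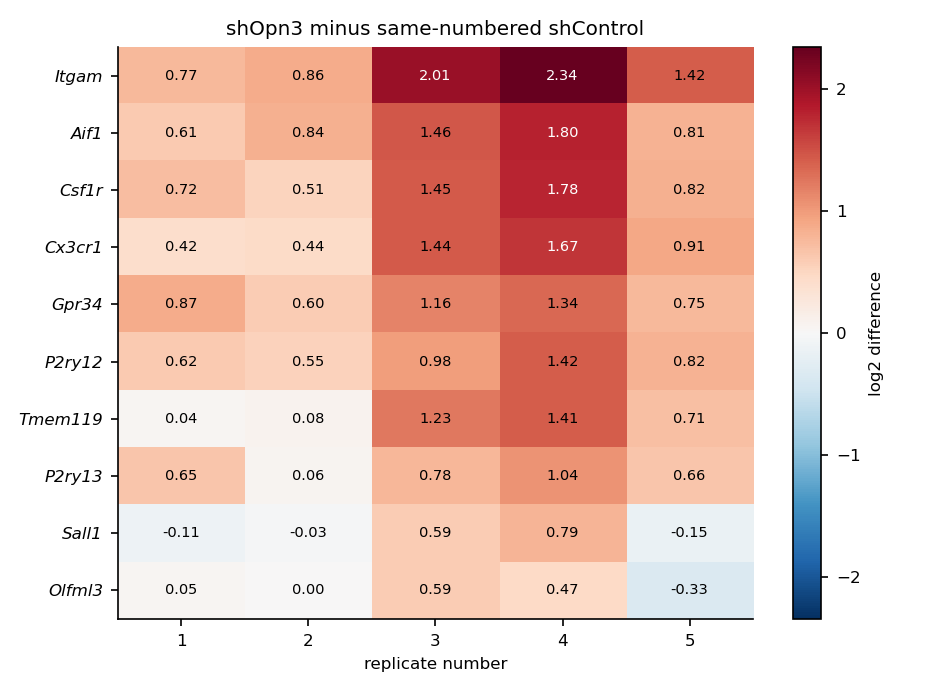
Heat map of the log2 difference between each shOpn3 sample and the shControl sample with the same replicate number (columns, 1 to 5) for the 10 members (rows, in order of their log2 fold change). Columns 3 and 4 hold the highest values in every row, and values below 0 occur only for Sall1 and Olfml3.

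Samples 3 and 4 stood out in both groups. The shOpn3 sample of replicate 4 was the highest of its group for 10 of 10 members, and replicate 3 was among the highest pair of samples for 7. In shControl, replicates 3 and 4 were the lowest sample for 4 and 3 members, and replicates 1, 2 and 5 held the highest sample for 9 of 10. Opn3 stood at 40.3%, 27.9%, 18.9%, 15.3% and 55.6% of the same-numbered control in pairs 1 to 5, so the pairs with the least Opn3 left were also 3 and 4. Whether the depth of knock-down has a part in the members' differences was not tested. Without both samples of replicate 3, or of replicate 4, the same number of 7 members was called higher.

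The members were set beside 12 genes of microglia and macrophages that are not members. Each sample was scaled to the mean log2 value of these 12, among them Ptprc, Cd53, Fcer1g, Tyrobp, Ctss and the C1q genes. This mean was 9.55 ± 0.216 in shControl and 10.9 ± 0.441 in shOpn3 (SD over 5 samples each). It was higher in 5 of 5 pairs, by 0.92, 0.85, 1.90, 2.05 and 1.08 on the log2 scale, with pairs 3 and 4 again the highest. All 12 genes were called higher, with a median log2 fold change of 1.36. The scaling gives a position relative to these genes and no level per cell, and Ptprc and Cd53 are also carried by lymphocytes. Whether other cells of the tissue carry Sall1, Olfml3 or further members was not tested.

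Relative to this reference, 4 members were lower at an adjusted p under 0.05 (limma over all 15597 genes) and 0 were called higher. Nearly all genes, 93.2%, fell behind the reference on this scale and 0.667% rose above it, so the members' count is below that of genes in general. Of the members, Sall1 and Olfml3 fell behind it most, by 1.14 (standard error 0.237; adjusted p = 3.1e-05, limma) and 1.20 (standard error 0.235; adjusted p = 1.4e-05, limma). The median of all genes tested was -1.38 on this scale, so Sall1 and Olfml3 fell less than the median gene. Both lay lower in every shOpn3 sample than in any shControl sample. The share of all genes separated in this way was not counted on this scale, so the separation is not read as particular to them. P2ry13 and Tmem119 were lower by this measure too, with log2 differences of -0.72 (standard error 0.232; adjusted p = 0.00380, limma) and -0.67 (standard error 0.244; adjusted p = 0.0101, limma), although the groups overlapped for both.

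P2ry12 stood at -0.48 relative to the reference (standard error 0.236; adjusted p = 0.0506, limma) and was lower in 5 of 5 pairs. P2ry12 was called lower in 4 of 12 alternative fits, namely without shControl replicate 5 (-0.56), without shOpn3 replicate 1 (-0.52), without shOpn3 replicate 2 (-0.56), or with the C1q genes taken out of the reference (-0.49). Cx3cr1 stood at -0.38 (standard error 0.232; adjusted p = 0.111, limma), with every shOpn3 sample below every shControl sample, between -0.20 and 0.06 against 0.16 to 0.57. Shares of all genes with such separation, or lower in 5 of 5 pairs, were not counted on this scale. Neither trait is therefore read as particular to P2ry12 or Cx3cr1. Gpr34, Csf1r and Aif1 stood at -0.41, -0.30 and -0.26 (limma adjusted p = 0.0999, 0.234 and 0.290). Itgam alone had an estimate above 0, at 0.12 (SE 0.237, 95% confidence interval -0.36 to 0.60; limma adjusted p = 0.620). Its difference between same-numbered samples on this scale was below 0 in 1 of 5 pairs.

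**Figure D3:**
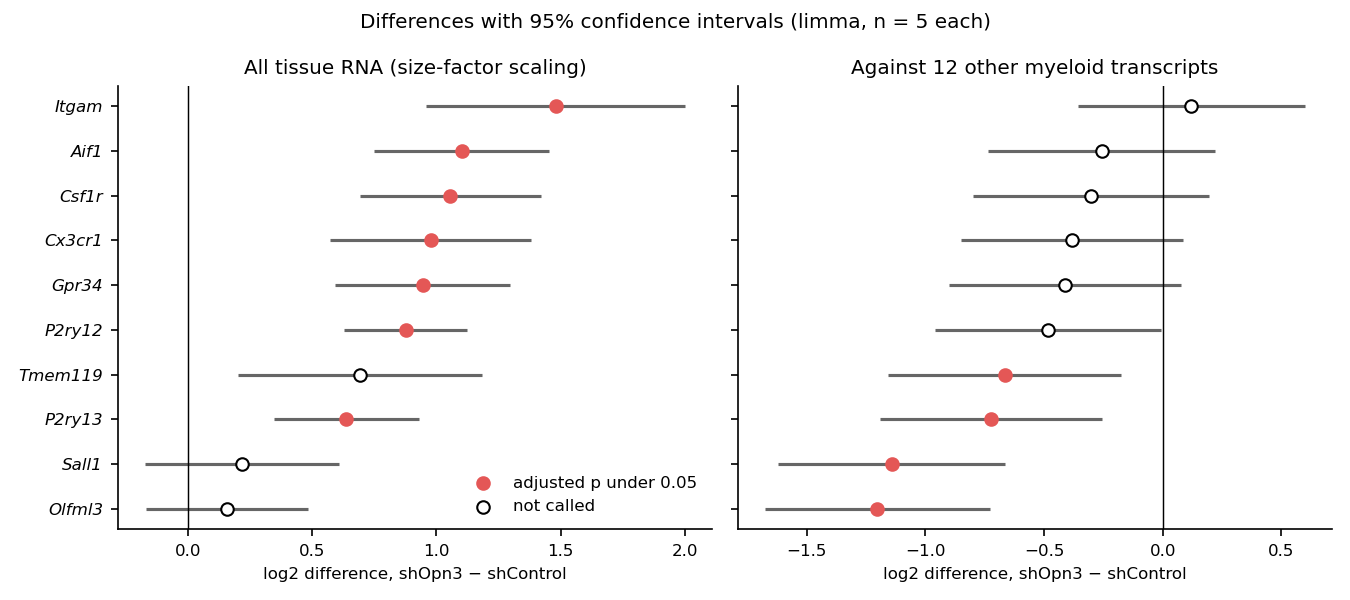
Log2 difference between shOpn3 and shControl (points) with 95% confidence intervals (lines) for each member, with size-factor scaling on the left and relative to 12 other myeloid transcripts on the right; filled points have an adjusted p under 0.05. The members run from Itgam at 1.48 to Olfml3 at 0.16 on the left and from 0.12 to -1.20 on the right.

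The order of the members by log2 fold change was Itgam, Aif1, Csf1r, Cx3cr1, Gpr34, P2ry12, Tmem119, P2ry13, Sall1 and Olfml3. The intervals of neighbours in this order overlapped throughout, so the order between neighbours is not settled, whereas the interval of Itgam (0.96 to 2.002) lay wholly above those of P2ry13, Sall1 and Olfml3. The first 4 are the members named above as also carried by blood monocytes or other macrophages. P2ry13 and Gpr34 were not placed in either set there. That grouping was made after the values were seen, and the difference between members was not tested.

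Genes around the member receptors were mixed. For each list described from here on with 0 genes called lower, edgeR and DESeq2 without the replicate block called 0 lower too, and 0 were lower at an unadjusted p under 0.05, except Vcan of the monocyte and neutrophil list. The replicate block changed some of these counts, as given beside each list, and the genes named there were chosen after their values were seen. Of 14 ligands, partners and enzymes, 3 were called higher and 0 lower (median 0.29). Itgb2, the beta chain that pairs with the product of Itgam, rose from 496 ± 87.2 to 1444 ± 507 normalized counts (SD over 5 samples each; a difference of 1.49 ± 0.207 standard error in log2, adjusted p = 0.000682 in limma), a difference of the same size as that of Itgam. Kcnk13, the potassium channel of microglial branches, rose by 0.79 (standard error 0.157; adjusted p = 0.00449, limma), and Cx3cl1, which encodes fractalkine, by 0.63 (standard error 0.157; adjusted p = 0.0151, limma). The ligands of Csf1r were not called, with Csf1 at 1314 ± 227 and 1355 ± 127 normalized counts and Il34 at 799.6 ± 114 and 941 ± 82.1 (SD over 5 samples each; limma adjusted p = 0.780 and 0.147). Under the replicate block 6 of the 14 were called higher, Il34 among them (adjusted p = 0.0379, limma). The call of Cx3cl1 was lost without replicate 2 (adjusted p = 0.0749).

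Of 12 genes of the transforming growth factor beta pathway, 3 were called higher and 2 lower (median 0.08). Tgfb1, the ligand, and Tgfbr1, its type I receptor, rose by 1.01 each (SE 0.204 and 0.173; limma adjusted p = 0.00489 and 0.00190), and Smad3, a mediator of the signal, rose by 0.52 (standard error 0.0943; adjusted p = 0.00279, limma). Smad7, an inhibitor of the pathway, fell by 0.42 (standard error 0.119; adjusted p = 0.0284, limma), and Itgb8, an integrin chain that helps release the active ligand, fell by 0.21 (standard error 0.0647; adjusted p = 0.0431, limma). The call of Smad7 was lost in 9 alternative fits and that of Itgb8 in 16, and 0 of the 12 were called lower without shControl replicate 1 or 5 or shOpn3 replicate 2 or 3.

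Of 12 transcription factors of microglia and macrophages, 9 were called higher and 0 lower (median 1.32), and the replicate block gave the same counts. Irf8, Runx1 and Ikzf1 rose by 1.73, 1.62 and 1.42 (SE 0.242, 0.185 and 0.199; limma adjusted p = 0.000691, 0.000306 and 0.000695). Spi1 rose from 94.9 ± 24.2 to 248 ± 86.0 normalized counts (SD over 5 samples each; a difference of 1.34 ± 0.249 standard error in log2, adjusted p = 0.00305 in limma).

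A list of 20 further transcripts of resting microglia gave 11 called higher and 0 lower among 18 tested (median 0.59). Under the replicate block 12 were called higher and 1 lower, Crybb1, which was lower in 5 of 5 pairs (log2 fold change -0.76; adjusted p = 0.00864 with the block and 0.230 without, limma). Hpgds, a prostaglandin synthase, rose by 1.85 (SE 0.265), Cd33, an inhibitory lectin, by 1.49 (SE 0.203), Csf3r by 1.40 (SE 0.218) and P2ry6, a receptor for uridine diphosphate, by 1.11 (SE 0.204), with limma adjusted p from 0.000613 to 0.00284.

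Transcripts of disease-associated microglia, 13 of 18 called higher and 0 lower, had a median of 1.08, close to that of the members, but a wider range, from -0.13 to 4.34. Spp1 (osteopontin), Cd68, a lysosomal protein of phagocytes, Gpnmb and Itgax rose by 4.34, 2.82, 2.68 and 2.64 (SE 0.308, 0.202, 0.413 and 0.261; limma adjusted p from 2.2e-05 to 0.00108). Relative to the myeloid reference, 6 of these 18 were called higher, against 0 of the 10 members, and 7 were called lower. No test of the difference between the lists was made.

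**Figure D4:**
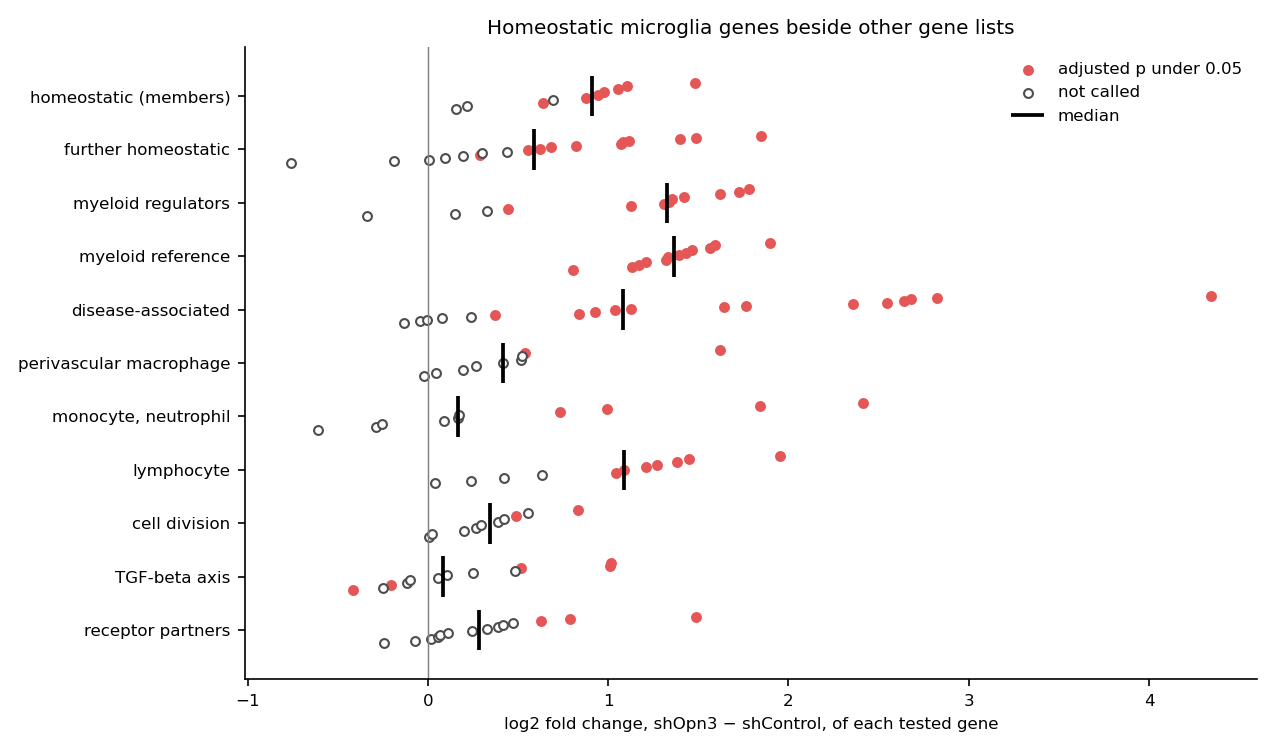
Log2 fold change (x axis) of every tested gene of 11 lists, in order within each list; filled points have an adjusted p under 0.05 and black bars are medians. The members lie between 0.16 and 1.48 with a median of 0.91, and disease-associated genes reach 4.34.

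Markers of other cells that share members were read beside them. Of 9 tested transcripts of perivascular macrophages, 2 were called higher, Siglec1 (a difference of 1.62 ± 0.321 standard error in log2, adjusted p = 0.00445 in limma) and Mrc1 (0.54, SE 0.157, limma adjusted p = 0.0316), and 0 were called lower. Among the defining ones, Cd163 had 139 ± 41.5 and 183 ± 39.1 normalized counts and Lyve1 171 ± 31.4 and 177 ± 38.8 (SD over 5 samples each; limma adjusted p = 0.173 and 0.895). The call of Mrc1 was lost in 8 alternative fits, and without shControl replicate 2 Cd163 was called higher (0.58; adjusted p = 0.0470). The summed level of the list ran from 2225 to 3080.4 in shControl and from 2994 to 4933 in shOpn3.

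Of 10 tested transcripts of monocytes and neutrophils, 4 were called higher, with Itgal, an integrin of leukocytes, at 2.42 (SE 0.320), Plac8 at 1.84 (SE 0.423), Cd44 at 0.99 (SE 0.109) and Lyz2 at 0.73 (SE 0.204), and 0 were called lower. Their limma adjusted p ran from 0.000275 to 0.0255. The summed level of the list ran from 17048 to 22279 in shControl and from 21612 to 36243 in shOpn3. Most of that sum was Fn1, Lyz2 and Vcan. Fn1 had 7951 ± 758 and 8494 ± 1372 normalized counts and Vcan 4182 ± 314 and 3446 ± 503 (SD over 5 samples each). Neither Fn1 nor Vcan was called in the main fit, and the sum was not tested as a level of these cells. The neutrophil transcripts S100a8 and S100a9 had 68.0 ± 27.2 and 134 ± 71.3 normalized counts in the controls and 52.9 ± 41.0 and 122 ± 84.9 after knock-down (SD over 5 samples each; limma adjusted p = 0.427 and 0.773). Leaving out shControl replicate 1 (0.0564), shControl replicate 2 (0.0522) or shOpn3 replicate 3 (0.0712) ended the call of Lyz2 by its adjusted p, and leaving out both samples of replicate 3 ended those of Lyz2 and Plac8 (0.121 and 0.0660). Under the replicate block 1 gene, Vcan, was called lower (log2 fold change -0.29; adjusted p = 0.0397, limma). Ccr2 had no row under that name.

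Of 11 tested lymphocyte transcripts, 7 were called higher and 0 lower, and their summed level ran from 679 to 916 in shControl and from 1625 to 4620.1 in shOpn3. Most of that sum was Cd4, which rat macrophages also carry, at 649 ± 59.2 and 2712 ± 1165 normalized counts (SD over 5 samples each). The T cell transcript Cd3e had 18.6 ± 7.59 and 55.8 ± 30.9 (SD over 5 samples each; limma adjusted p = 0.0200), a call lost without shOpn3 replicate 3 (0.0593) or without both samples of replicate 3 (0.112), and Gzmb had 0 reads in every sample. The number of lymphocyte genes called higher fell to 4 without shControl replicate 1 or 2, to 3 without shControl replicate 3 or shOpn3 replicate 4, and to 2 without shOpn3 replicate 3. The part of these cells in the members' differences was not tested.

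Of 10 transcripts of dividing cells, 2 were called higher and 0 lower (median 0.34). Ccnb1 rose from 86.4 ± 12.4 to 158 ± 42.5 normalized counts (SD over 5 samples each; limma adjusted p = 0.0122) and Tpx2 from 179 ± 12.1 to 257 ± 62.4 (SD over 5 samples each; limma adjusted p = 0.0475, lost in 15 alternative fits), and the call of Ccnb1 was lost without replicate 5 (0.0514). The summed level of the list ran from 731 to 947 in shControl and from 681 to 2366 in shOpn3, so the groups overlapped. The top of that range was shOpn3 replicate 4, which was also the highest shOpn3 sample for 10 of 10 members; the next sample reached 1102. In that library Mki67 stood at 629.8 normalized counts against 92.1 to 236 in the other shOpn3 samples, and Top2a at 551 against 110.3 to 191. Without it the log2 fold changes of Mki67 and Top2a were -0.18 and -0.11, and 7 members were still called higher. Without any single sample other than shOpn3 replicate 1, 1 of the 10 genes of cell division was called. Calls for the other cell types of the tissue went in different directions. All 10 oligodendrocyte transcripts were called lower (median -1.24), 3 of 10 astrocyte transcripts were called higher (median 0.14), 2 of 10 neuronal transcripts were called higher and 2 lower (median 0.20; 4 higher and 1 lower without shOpn3 replicate 4), and 0 of 7 endothelial transcripts were called either way (median -0.12). The replicate block added Tubb3 to the neuronal genes called lower (adjusted p = 0.00850) and Slco1a4 as an endothelial gene called higher (adjusted p = 0.0442, limma).

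The 8 genes whose log2 values were most like the members' standardised mean over the 10 samples were Tbc1d2b, Cd200r1, Golm1, Pld4, Myo1f, Srgap2, Ikzf1 and Parvg, with Pearson correlations from 0.987 to 0.996. The samples share the difference between groups, and the values are descriptions of likeness. When deviations from the group means were used in its place, Tbc1d2b, Cd200r1 and Ikzf1 were again among the 8 most alike, at 0.98, 0.98 and 0.99. By the first measure Csf1r was the member closest to the mean, at 0.989, and Olfml3 the farthest from it, at 0.585. The mean includes each member itself, which raises the members' values, so they cannot be compared with those of the other genes.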

How the data were processed

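RNA from 5 shControl and 5 shOpn3 supraoptic nuclei had been sequenced. The authors deposited 1 table with a signal per gene and sample, namely read counts divided by 1 size factor per sample (0.942 to 1.07). Whole reads were recovered for 100% of values within 0.001 reads. Per the file headers, the authors' own comparison gives log2 fold changes with standard errors, a Wald score, p-values and adjusted p-values. FastQC, STAR, featureCounts and DESeq2 are named in the submitters' processing notes. Genome build, annotation and strand setting are not given in the sources used here.

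After a filter that kept genes whose mean normalized count was 10 or more, 1 was added to each value before taking log2, and groups were compared with limma 3.58.1 (trend, group as only term, R 4.3.3), two-sided, with Benjamini-Hochberg adjustment over all 15597 genes. Fold changes are on this scale, which understates those of low genes. Alternatives were a replicate block, pseudocounts of 0.5 and 10, no filter or a mean of at least 50, other scalings, edgeR 4.0.16 and DESeq2 1.42.0 on recovered reads, limma-voom with quality weights, and leaving out samples. The methods were tested on simulated counts, drawn independently with the same dispersion for every gene and no replicate effect. That check does not cover pairing or a spread that differs between groups. Single values were compared by exact permutation over 252 splits (smallest p 0.00794), which ignores the replicate numbers. An exact sign-flip test used the differences of same-numbered samples (32 flips, smallest p 0.0625).

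Per the labels' protocols, both nuclei of a rat were used, 1 for each hairpin, though no label ties a number to a rat, so p-values measure the spread between these samples. Deviations of same-numbered samples correlated across genes in 5 of 5 pairs (r from 0.12 to 0.44), so the numbers were taken to pair the samples. The 20 combinations of different numbers had r from -0.45 to 0.36 (median -0.21). Pair 4, with the lowest r of 0.12, lay within that range, so its pairing is the least certain. Members and lists were chosen with earlier results of these data known. The text names all members and, from each list, at most 4 called genes with the largest change, besides defining markers, ligands and overlapping genes; Spi1, Itgb8 and the genes called under the block alone or apart in 1 library were added after their values were seen. Some genes of the lists are not reported here by name.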

Additional observations from a re-analysis of the deposited data

Results flagged for a closer look

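For 79 genes, including all members, total reads and the myeloid reference, both groups were searched for a sample set far from the other 4. Of 162 group values 9 had one, where chance gives about 1 in 20, and none was of a member. The genes of cell division entered the search after their values were seen, and for 5 of the 10 the sample was shOpn3 replicate 4. There Mki67 reached 629.8 normalized counts (nearest sample 236), Top2a 551 (191), Cdk1 115 (52.4), Ccna2 98.5 (39.3) and Birc5 68.6 (32.9). In shControl replicate 5, Cd44 reached 2191 normalized counts while the nearest sample had 1722. In shControl replicate 1, Oxt reached 56716 while the nearest sample had 21354, Tubb3 reached 9440.1 (nearest 6163), and Mki67 was lowest at 139.7 (nearest 194).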

How the results depend on the processing

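The number of members called higher was 7 or 8 and the number called lower 0 in all 26 alternative fits, and each of the 7 kept its direction and call in all of them. Relative to the myeloid reference, 3 to 5 members were lower and 0 higher in 12 fits, Tmem119 losing its call there without shControl replicate 2 (-0.52, adjusted p = 0.0622). Under a replicate block, the number of all genes called rose from 2940 to 4726 in limma and from 3025 to 4777 in edgeR, and among the members it changed in limma only the call of Tmem119. With limma-voom and quality weights 5085 genes were called, and leaving out samples gave 1604 to 3056, the lowest without replicate 3. Among genes that were not called, some log2 fold changes changed sign. Leaving out samples moved Csf1 between -0.048 (without replicate 4) and 0.16, S100a9 between -0.53 and 0.011 (without shOpn3 replicate 3), and Lyve1 between -0.079 (without shOpn3 replicate 4) and 0.13, with -0.013 and -0.033 without shControl replicates 1 and 3. Among genes of cell division it moved Ccna2 between -0.31 and 0.15, Mki67 between -0.18 and 0.51, Top2a between -0.13 and 0.47 and Ube2c between -0.13 and 0.23, the lowest without shOpn3 replicate 4 or, for Top2a, without replicate 4. Quantile normalization gave -0.17 for Ccna2 and -0.21 for Ube2c, and limma-voom -0.19 for Ccna2, -0.016 for Mki67 and -0.011 for Slco1a4. Lyve1 had -0.059 with quantile normalization and -0.11 with limma-voom. The causes were not tested. Every member had at least 201 reads in each sample.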
